A study of Mus musculus with 10 samples.

Results

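The antioxidant and glutathione genes are 35 genes of the glutathione, thioredoxin and peroxiredoxin systems, superoxide dismutases, catalase, and haem and quinone enzymes. They include the regulators Nfe2l2 and Keap1. They were chosen by name, and all 35 were listed in a table of 31510 genes. To be tested, a gene needed a normalised count, the authors' read count adjusted for depth, of 10 or more in 5 or more of the 10 libraries, and all 35 passed, as did 17556 genes in all. The lowest value of any of them was 31.3, for Gpx8.

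Bulk RNA sequencing was done on hippocampi of 10 male APP/PS1 mice (34832-JAX), whose transgenes cause amyloid to build up in brain tissue. At 8 months of age, 5 mice received AAV8-Irisin-FLAG and 5 received AAV8-GFP by the tail vein, and the hippocampus was dissected 2 months later. AAV8 is a viral vector that reaches the liver from the blood. The first vector was given to make the liver a source of irisin, a hormone released by muscle, and the other encodes green fluorescent protein. Every mouse carried the APP/PS1 transgenes, so the comparison holds no mouse free of them and none without a vector. Neither the promoter in the vectors nor the irisin level of a mouse is stated in the labels. The comparison asks what irisin delivered outside the brain does to the hippocampus of these mice.

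The transcription factor NRF2, encoded by Nfe2l2, is held in the cytoplasm by KEAP1, which marks it for degradation. Oxidants and electrophiles modify cysteines of KEAP1, and NRF2 then enters the nucleus and, with a small MAF protein, binds antioxidant response elements near genes of glutathione synthesis, thioredoxin recycling and quinone reduction. Glutathione is a tripeptide that carries the reducing power for peroxidases and transferases, while peroxiredoxins draw theirs mainly from thioredoxin. In brain, astrocytes hold much of the NRF2 activity and supply neurons with the precursors of glutathione.

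The core of the antioxidant response element is written TGACNNNGC, and it was searched on both strands in RefSeq promoter windows of GRCm38.p6, each covering 250 bases before and 50 after a gene's start. Windows were available for 29 of the 35 genes, and 8 of these genes (27.6%) had a match, against 14% of all 27025 genes with a window. Counted by window, matches were in 8 of 36 windows of the antioxidant genes (22.2%) and in 12.4% of all 32851 windows. The matches were at Nfe2l2 itself, at Gclm of glutathione synthesis, at Prdx1, Srxn1, Sod1 and Txnrd1, and at the transferase genes Gstm5 and Mgst1. A match is a description of letters and not a bound site. Hmox1, Gclc, Gsr, Prdx6, Sod3 and Gsta4 had no window and were not searched. A gene with a window and no match, such as Nqo1, may hold an element outside the bases searched. Of the genes with a match, 4 are shown: the regulator and genes of the synthesis, peroxiredoxin and thioredoxin arms that it is known to serve. Their upstream 250 bases are given below, with the element in capitals. They are chr2:75704664-75704913 on the minus strand for Nfe2l2, chr3:122245307-122245556 on the plus strand for Gclm, chr4:116685349-116685598 on the plus strand for Prdx1, and chr10:82858956-82859205 on the plus strand for the Txnrd1 window that held the match. In the last 3 the element reads on the opposite strand, as GCNNNGTCA.
Nfe2l2: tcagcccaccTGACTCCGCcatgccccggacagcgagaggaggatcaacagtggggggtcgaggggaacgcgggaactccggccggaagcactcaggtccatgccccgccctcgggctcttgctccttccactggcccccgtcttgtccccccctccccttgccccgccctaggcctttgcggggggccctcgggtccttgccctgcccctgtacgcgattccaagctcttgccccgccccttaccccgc
Gclm: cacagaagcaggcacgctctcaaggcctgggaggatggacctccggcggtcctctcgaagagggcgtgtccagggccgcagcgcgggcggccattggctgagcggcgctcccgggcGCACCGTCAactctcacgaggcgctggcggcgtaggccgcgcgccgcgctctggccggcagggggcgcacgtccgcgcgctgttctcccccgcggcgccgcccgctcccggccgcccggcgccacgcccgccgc
Prdx1: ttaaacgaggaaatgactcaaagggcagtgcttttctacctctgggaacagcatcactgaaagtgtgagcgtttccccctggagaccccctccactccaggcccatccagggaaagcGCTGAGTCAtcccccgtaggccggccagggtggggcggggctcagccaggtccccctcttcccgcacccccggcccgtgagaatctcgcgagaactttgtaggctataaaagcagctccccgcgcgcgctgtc
Txnrd1: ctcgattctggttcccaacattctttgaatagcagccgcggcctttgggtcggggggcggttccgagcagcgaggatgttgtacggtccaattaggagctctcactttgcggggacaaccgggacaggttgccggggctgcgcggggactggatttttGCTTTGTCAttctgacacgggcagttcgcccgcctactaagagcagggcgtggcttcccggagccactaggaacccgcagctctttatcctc

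Libraries held 35300000 to 36600000 normalised counts each, from an estimated 30700000 to 41500000 reads. The read totals are approximate, since the value of 1 read was not the same for every gene of a library. Neuronal markers and markers of hippocampal regions were present in every library, the first summing to between 196227 and 200772 normalised counts in AAV8-Irisin-FLAG and between 191275 and 203837 in AAV8-GFP. Astrocyte markers summed to between 139231 and 146554 in AAV8-Irisin-FLAG and between 131183 and 169676 in AAV8-GFP, with 1 of 7 higher in AAV8-Irisin-FLAG and 6 lower. The sum of 169676 was that of AAV8-GFP mouse 3, and the other libraries held 131183 to 148993. That mouse also had the highest microglia and endothelial sums, 22812 and 7419, and the lowest oligodendrocyte and ependymal sums, 103881 and 247. The cause was not tested. Pairs of libraries differed by about as much within groups as between them, with a median SD of log2 differences over all tested genes of 0.363 and 0.364 in that order, and no pair was near identity.

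By its share of extreme values, the library of AAV8-GFP mouse 1 stood apart from the rest. It held the highest value of the 10 libraries for 13 of the 35 genes, or 37.1%, and for 19.7% of all tested genes, where other libraries held between 6.92% and 11.8%. The 13 were Keap1, Gpx1, Gpx4, Prdx2, Prdx5, Srxn1, Sod1, Txn1, Txn2, Txnrd2, Gsta4, Gstp1 and Mgst3. The same library held the lowest value for 4 of the 35, Slc7a11 among them, and for 20.8% of all tested genes. The departure differed by gene length. In that library the 5766 tested genes with the shortest annotated exons, up to 3009 bases, had a median deviation of 0.084 from their own mean over the 10 libraries on the log2(normalised count + 1) scale, and the 5765 longest, over 5533 bases, one of −0.079. In the 9 other libraries the medians of these shortest genes lay between −0.023 and 0.035. Of the 35 antioxidant genes, 20 belong to the shortest group, with a median of 0.064 in AAV8-GFP mouse 1, and 5 to the longest, with −0.037. The 10 antioxidant genes of middle length had a median of 0.079 there, against 0.011 over all genes of that length, so among the antioxidant genes the deviation did not decline steadily with length. The cause of the departure was not tested. Without this mouse, 0 of the 35 genes passed the comparison of the groups by limma (adjusted p under 0.05), the median AAV8-Irisin-FLAG minus AAV8-GFP log2 difference over them was −0.0041, and 15 had a higher mean in AAV8-Irisin-FLAG.

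**Figure D1:**
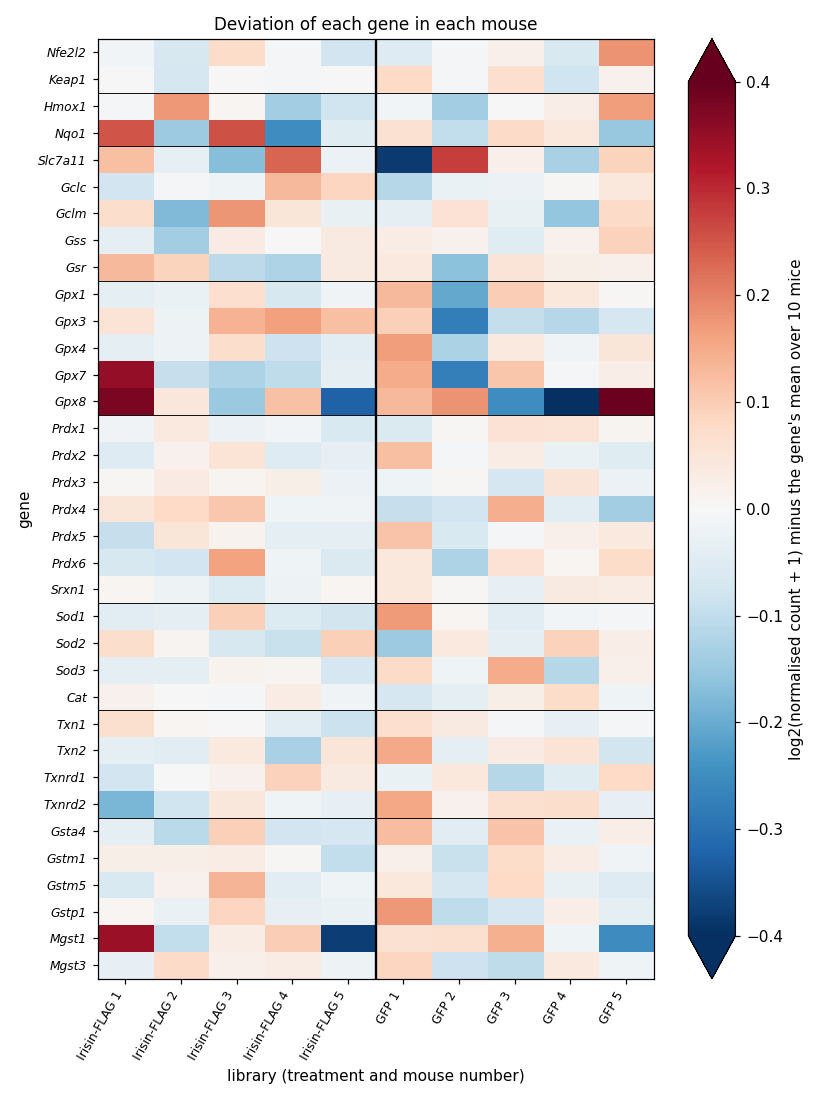
Deviation of each of the 35 genes (rows) in each library (columns, AAV8-Irisin-FLAG mice left of AAV8-GFP mice) from the gene's mean over 10 mice, on the log2(normalised count + 1) scale; red is above and blue below. No block of rows changes colour at the line between the groups, and AAV8-GFP mouse 1 is the highest library for 13 of the 35 genes.

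None of the 35 antioxidant and glutathione genes passed the test between AAV8-Irisin-FLAG and AAV8-GFP mice. With the threshold at an adjusted p of 0.05 by limma, the number higher in AAV8-Irisin-FLAG was 0 and the number lower was 0, beside 0% of the 17556 tested genes in each direction. The smallest adjusted p of an antioxidant gene was 0.942, which was also the smallest of the table. At an unadjusted p under 0.05 there were 0 of 35, against 4.49% of all tested genes, made up of 2.28% higher in AAV8-Irisin-FLAG and 2.21% lower. That count was 1 in 4 alternative fits: Gpx3 without AAV8-GFP mouse 1, with a constant prior variance and with weights for library quality, and Gsta4 without AAV8-Irisin-FLAG mouse 3. In no antioxidant gene were the 5 AAV8-Irisin-FLAG mice all above or all below the 5 AAV8-GFP mice, a separation found in 0.803% of tested genes, 0.382% with AAV8-Irisin-FLAG above and 0.422% with it below. The mean was higher in AAV8-Irisin-FLAG for 16 genes and lower for 19, and higher for 50.5% of all tested genes. With libraries rescaled to a common upper quartile, 14 were higher. The median log2 difference, AAV8-Irisin-FLAG minus AAV8-GFP on the log2(normalised count + 1) scale, was −0.0064 over the 35 genes and 0.00099 over all tested genes.

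These data also bound the size of a change. The standard error of a gene's log2 difference had a median of 0.049 over the 35 genes and 0.075 over all tested genes. Within the middle range of the antioxidant genes' levels, between their quartiles, it was 0.047 over 17 of them and 0.057 over all 6851 tested genes there. The 95% interval of the difference, taken gene by gene with no adjustment, lay within a 1.2-fold change in either direction for 29 of the 35, and within 1.5-fold for all 35. The exceptions to the narrower bound were Gpx3, Gpx8, Gpx7, Nqo1, Slc7a11 and Mgst1. A change smaller than these intervals was not detectable with 5 mice a group. In bulk tissue, fewer cells of a type and less RNA per cell cannot be told apart.

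**Figure D2:**
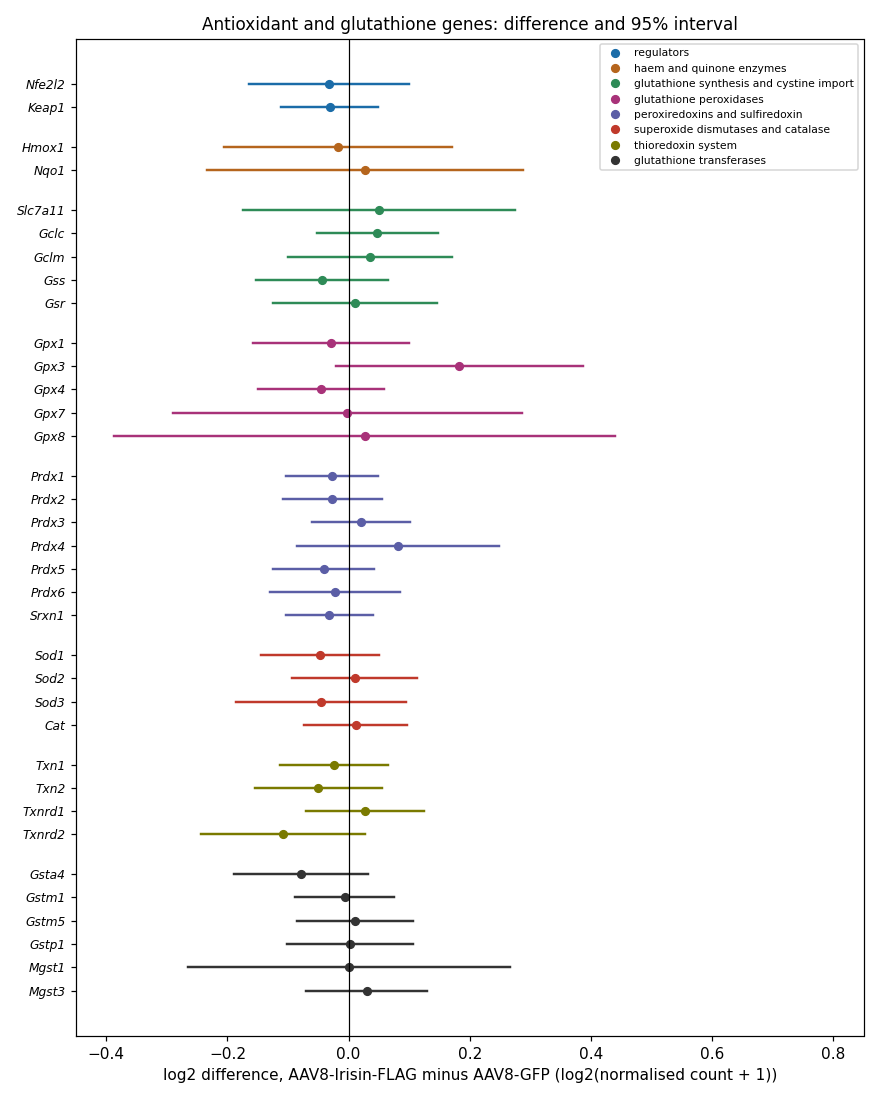
Log2 difference of each of the 35 genes, AAV8-Irisin-FLAG minus AAV8-GFP, on the log2(normalised count + 1) scale (horizontal axis), with genes down the page in colours by role. Dots are estimates by limma and lines are 95% intervals, and every interval spans 0; the estimate farthest from 0 is that of Gpx3, at 0.18.

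Both regulators had a slightly lower mean in AAV8-Irisin-FLAG, and neither passed the test. Nfe2l2 (mm10, chromosome 2, 75675513 to 75704641) had 479, 461, 507, 480 and 457 normalised counts in AAV8-Irisin-FLAG mice 1 to 5, against 465, 480, 488, 462 and 546 in AAV8-GFP mice 1 to 5. The groups overlapped, and the highest value was that of AAV8-GFP mouse 5. The difference was −2.24%, with a 95% interval of −10.8% to 7.11%. Keap1 (chromosome 9, 21229730 to 21239361), the adaptor that holds NRF2 for degradation, had 2982, 2853, 2988, 2971 and 2981 normalised counts in AAV8-Irisin-FLAG mice, against 3156, 2969, 3130, 2828 and 3023 in AAV8-GFP mice. All 5 AAV8-Irisin-FLAG mice lay inside the AAV8-GFP range and below its median. Its log2 difference was −0.031 with a standard error of 0.037 (adjusted p = 0.949 by limma), and between −0.054 and −0.015 with a mouse left out in turn. Exons of Keap1 overlap those of Gm16754 on the opposite strand, and the use of strand in counting was not given, so its value is uncertain.

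Hmox1 and Nqo1, the enzymes most used as readouts of NRF2, did not pass the test either. Hmox1, haem oxygenase 1, which breaks down haem (chromosome 8, 75093621 to 75100589), had 180, 204, 182, 164 and 171 normalised counts in AAV8-Irisin-FLAG mice, against 180, 164, 181, 184 and 203 in AAV8-GFP mice. The ranges of the groups were nearly the same, and means were 180 ± 15.1 and 182 ± 14.0 in that order (SD, n = 5 each). Microglia can express Hmox1, and all 9 markers of microglia and all 8 tested markers of plaque-associated microglia had a lower mean in AAV8-Irisin-FLAG. None of these markers passed the test. The microglia markers summed to between 16121 and 20038 normalised counts in AAV8-Irisin-FLAG and between 17369 and 22812 in AAV8-GFP, and those of plaque-associated microglia to between 5644 and 7225 and between 6250 and 8446 in the same order. Both highest sums were those of AAV8-GFP mouse 3. The other AAV8-GFP mice had 17369 to 19578 for microglia and 6250 to 7288 for plaque-associated microglia. No microglia marker was at 0 in all libraries, and the part of these cells in the Hmox1 values was not tested. Nqo1, a quinone reductase (chromosome 8, 107388225 to 107403206), had 121, 91.3, 121, 85.02 and 97.7 normalised counts in AAV8-Irisin-FLAG mice, against 106, 94.5, 107, 104 and 91.0 in AAV8-GFP mice. AAV8-Irisin-FLAG mice 1 and 3 were the highest of all 10 and mouse 4 the lowest, so this group spread more widely. The 95% interval of its difference was −15.0% to 22.0%.

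Glutathione synthesis begins with cystine, which enters through the exchanger subunit encoded by Slc7a11. Of the 5 genes of import, synthesis and recycling, 4 averaged higher in AAV8-Irisin-FLAG and 1 lower, and none passed the test. Slc7a11 (chromosome 3, 49892526 to 50443614) had 1430, 1287, 1170, 1549 and 1296 normalised counts in AAV8-Irisin-FLAG mice, against 1011, 1596, 1337, 1203 and 1400 in AAV8-GFP mice. The lowest and the highest of the 10 were both AAV8-GFP mice, 1 and 2, and its log2 difference of 0.050 became −0.039 without AAV8-GFP mouse 1. Gclc, the catalytic subunit of glutamate-cysteine ligase (chromosome 9, 77754535 to 77794485), had 1890, 1986, 1972, 2183 and 2117 normalised counts in AAV8-Irisin-FLAG mice, against 1841, 1959, 1961, 1999 and 2052 in AAV8-GFP mice. AAV8-Irisin-FLAG mice 4 and 5 lay above the highest AAV8-GFP mouse, and the difference was 3.34% with a 95% interval of −3.58% to 10.7% (adjusted p = 0.942 by limma). On the log2 scale it was 0.047, and between 0.021 and 0.073 with a mouse left out in turn. Gclm, the modifier subunit of the ligase (chromosome 3, 122245557 to 122270732), had 1816, 1532, 1953, 1788 and 1694 normalised counts in AAV8-Irisin-FLAG mice, against 1686, 1799, 1693, 1554 and 1826 in AAV8-GFP mice. AAV8-Irisin-FLAG mice held both its lowest and its highest value. Gss, which joins glycine to complete glutathione, averaged 744 ± 36.7 normalised counts in AAV8-Irisin-FLAG and 767 ± 26.7 in AAV8-GFP (SD, n = 5 each). Gsr, the reductase that restores oxidised glutathione, averaged 836 ± 65.3 in AAV8-Irisin-FLAG and 828 ± 49.9 in AAV8-GFP (SD, n = 5 each). Exons of Gclm and Gss overlap those of other genes, including Gm6061 on the strand of Gclm and Acss2 opposite Gss, which leaves these values uncertain.

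**Figure D3:**
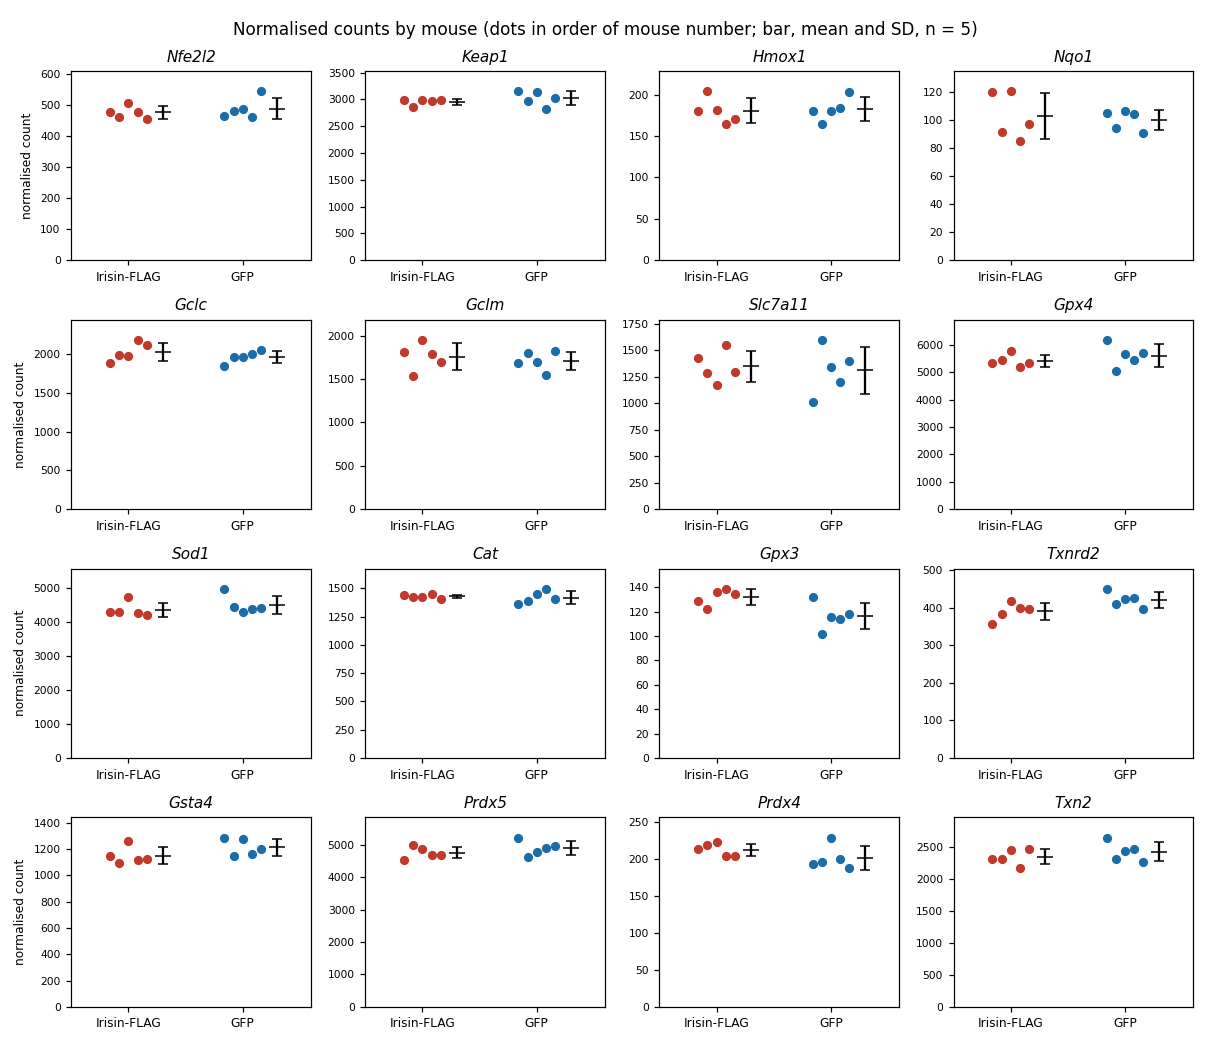
Normalised counts (vertical axes, from 0) of the 16 genes given mouse by mouse, with AAV8-Irisin-FLAG mice in red on the left and AAV8-GFP mice in blue on the right of each panel; bars are mean and SD of 5 mice. The groups overlap in every panel, and in Gpx3 3 of 5 AAV8-Irisin-FLAG mice lie above the highest AAV8-GFP mouse.

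Glutathione peroxidases reduce hydrogen peroxide or lipid peroxides, and among the 5 measured the secreted form stood farthest from equal means. Gpx3, the peroxidase of plasma and extracellular fluid (chromosome 11, 54902453 to 54910377), had 129, 122, 136, 139 and 135 normalised counts in AAV8-Irisin-FLAG mice, against 132, 102, 116, 114 and 118 in AAV8-GFP mice. AAV8-Irisin-FLAG mice 3, 4 and 5 lay above the highest AAV8-GFP mouse and all 5 above the AAV8-GFP median, while AAV8-GFP mouse 1 reached into the upper range. The difference was 13.5% with a 95% interval of −1.42% to 30.7%, and its adjusted p was 0.942 by limma, so it did not pass. AAV8-Irisin-FLAG mouse 4 also held the highest sum of choroid plexus markers, at 2816 normalised counts. The sums were 1040 to 1275 in the other AAV8-Irisin-FLAG mice and 849 to 1108 in AAV8-GFP mice. Kl, at 788 to 920 in AAV8-Irisin-FLAG and 650 to 879 in AAV8-GFP, made up most of every sum but that of mouse 4. Ttr, another of these markers, varied more. It had 86.2, 12.3, 162, 1528 and 56.6 normalised counts in AAV8-Irisin-FLAG mice 1 to 5, against 10.1 to 48.3 in AAV8-GFP mice. All 7 choroid plexus markers that were tested, of 10 listed, had a higher mean in AAV8-Irisin-FLAG, and none of the 10 was at 0 in all libraries. None passed the test, and they did not all follow Ttr. Kl was 914 in AAV8-Irisin-FLAG mouse 2, where Ttr was 12.3. Folr1 was highest in AAV8-GFP mouse 5, and the other tested markers were highest in AAV8-Irisin-FLAG mouse 4. Without AAV8-Irisin-FLAG mouse 4 the log2 difference of Gpx3 was 0.16, against 0.18 with all mice. It was 0.14 without AAV8-GFP mouse 2, the lowest, and 0.23 without AAV8-GFP mouse 1, the highest of its group. AAV8-Irisin-FLAG mice 1, 3 and 5, also above the AAV8-GFP range of Ttr, stayed in the fit without mouse 4. The part of choroid plexus in the Gpx3 values was not tested.

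Gpx4, the selenoprotein that reduces lipid peroxides in membranes and guards against ferroptosis (chromosome 10, 80047166 to 80056439), had 5361, 5438, 5791, 5205 and 5342 normalised counts in AAV8-Irisin-FLAG mice, against 6191, 5050, 5665, 5459 and 5695 in AAV8-GFP mice. All 5 AAV8-Irisin-FLAG mice lay within the AAV8-GFP range, whose top value was that of mouse 1. The log2 difference was −0.046, and −0.0098 without that mouse. Of the 50-base stretches of Gpx4 transcripts, 34.7% also occur in transcripts of other genes, chiefly Gpx4-ps2, so reads may have been divided. The cytosolic peroxidase Gpx1 averaged 1098 ± 38.5 normalised counts in AAV8-Irisin-FLAG and 1123 ± 98.7 in AAV8-GFP (SD, n = 5 each). Gpx7 and Gpx8, peroxidases of the endoplasmic reticulum, averaged 66.4 ± 10.1 and 46.4 ± 8.80 normalised counts in AAV8-Irisin-FLAG, against 66.3 ± 7.31 and 46.1 ± 11.3 in AAV8-GFP (SD, n = 5 each). Gpx8 had the widest 95% interval, −23.5% to 35.7%.

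Peroxiredoxins remove peroxides with a reactive cysteine, and sulfiredoxin rescues them when that cysteine is overoxidised. Of these 7 genes, 2 averaged higher in AAV8-Irisin-FLAG and 5 lower, with differences between −0.041 and 0.081 on the log2 scale. Prdx4, the form of the endoplasmic reticulum (chromosome X, 155323918 to 155340754), had 213, 218, 222, 204 and 204 normalised counts in AAV8-Irisin-FLAG mice, against 194, 196, 229, 200 and 188 in AAV8-GFP mice. All 5 AAV8-Irisin-FLAG mice lay above the AAV8-GFP median, yet AAV8-GFP mouse 3 was the highest of the 10. Prdx5, found in mitochondria, peroxisomes and cytosol (chromosome 19, 6906697 to 6910106), had 4530, 4997, 4871, 4705 and 4705 normalised counts in AAV8-Irisin-FLAG mice, against 5225, 4627, 4798, 4895 and 4956 in AAV8-GFP mice. Only AAV8-Irisin-FLAG mouse 1 fell outside the AAV8-GFP range, below it. Exons of Prdx5 overlap those of Trmt112 on the opposite strand, so its value is uncertain.

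The other peroxiredoxins had small differences with narrow intervals. Prdx1 averaged 2910 ± 72.6 normalised counts in AAV8-Irisin-FLAG and 2967 ± 94.6 in AAV8-GFP, and mitochondrial Prdx3 averaged 1463 ± 22.3 in AAV8-Irisin-FLAG and 1443 ± 44.2 in AAV8-GFP (SD, n = 5 each). Prdx6, which also acts on phospholipids, averaged 5683 ± 406 in AAV8-Irisin-FLAG and 5767 ± 307 in AAV8-GFP (SD, n = 5 each). Prdx2, plentiful in red cells and neurons, averaged 4874 ± 158 in AAV8-Irisin-FLAG and 4967 ± 232 in AAV8-GFP (SD, n = 5 each). All 5 red cell markers had a lower mean in AAV8-Irisin-FLAG and none was at 0 in all libraries. Their sums ran from 1669 to 3211 normalised counts in AAV8-Irisin-FLAG and from 1586 to 4502 in AAV8-GFP, and their part in the Prdx2 values was not tested. Exons of Prdx2 overlap those of Junb and Rnaseh2a on the opposite strand, and 4.53% of its 50-base stretches and 8.29% of those of Prdx1 recur in other genes, so both values are uncertain. Srxn1, sulfiredoxin, averaged 2262 ± 41.8 in AAV8-Irisin-FLAG and 2312 ± 49.3 in AAV8-GFP (SD, n = 5 each). It varied least of the 35, with a coefficient of variation of 2.21% over the 10 mice, against a median of 5.58% for the antioxidant genes, 8.48% for all tested genes and 6.25% for the tested genes between the quartiles of the antioxidant genes' levels.

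Superoxide dismutases turn superoxide into hydrogen peroxide, which catalase then removes. Sod1, the copper-zinc enzyme of the cytosol (chromosome 16, 90220754 to 90226329), had 4274, 4292, 4711, 4247 and 4189 normalised counts in AAV8-Irisin-FLAG mice, against 4962, 4437, 4272, 4381 and 4400 in AAV8-GFP mice. AAV8-Irisin-FLAG mouse 3 and AAV8-GFP mouse 1 each stood above the rest of their group. Its log2 difference was −0.048, and −0.011 without AAV8-GFP mouse 1. Cat, catalase (chromosome 2, 103453849 to 103485160), had 1438, 1422, 1419, 1451 and 1409 normalised counts in AAV8-Irisin-FLAG mice, against 1357, 1384, 1446, 1495 and 1405 in AAV8-GFP mice. All 5 AAV8-Irisin-FLAG mice lay inside the AAV8-GFP range, and the difference was 0.795% with a 95% interval of −4.93% to 6.86%. The mitochondrial manganese enzyme Sod2 averaged 7047 ± 390 normalised counts in AAV8-Irisin-FLAG and 7000 ± 436 in AAV8-GFP, and the extracellular Sod3 averaged 321 ± 7.80 in AAV8-Irisin-FLAG and 332 ± 22.6 in AAV8-GFP (SD, n = 5 each). Of the 50-base stretches of Sod2 transcripts, 21.0% recur in other genes, so its level is uncertain.

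In the thioredoxin system, 1 of 4 genes averaged higher in AAV8-Irisin-FLAG and 3 lower, and none passed the test. Txnrd2, the mitochondrial thioredoxin reductase (chromosome 16, 18426384 to 18479073), had 356, 383, 418, 400 and 396 normalised counts in AAV8-Irisin-FLAG mice, against 451, 410, 424, 426 and 396 in AAV8-GFP mice. All 5 AAV8-Irisin-FLAG mice lay below the AAV8-GFP median, and mice 1 and 2 below the whole AAV8-GFP range. The difference was −7.28% with a 95% interval of −15.6% to 1.85% (adjusted p = 0.942 by limma). Txn2, the mitochondrial thioredoxin that Txnrd2 serves (chromosome 15, 77915047 to 77929006), had 2324, 2321, 2459, 2185 and 2472 normalised counts in AAV8-Irisin-FLAG mice, against 2654, 2326, 2447, 2484 and 2270 in AAV8-GFP mice. Here 4 of 5 AAV8-Irisin-FLAG mice lay inside the AAV8-GFP range, and AAV8-GFP mouse 1 was again the highest. The cytosolic pair of thioredoxin, Txn1, and its reductase, Txnrd1, had log2 differences of −0.024 and 0.027. With a mouse left out in turn, these lay between −0.043 and −0.0055 for Txn1 and between 0.0019 and 0.051 for Txnrd1. Txnrd1 averaged 2216 ± 94.1 normalised counts in AAV8-Irisin-FLAG and 2175 ± 116 in AAV8-GFP (SD, n = 5 each).

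Glutathione transferases attach glutathione to electrophiles, and 4 of 6 averaged higher in AAV8-Irisin-FLAG and 2 lower. With libraries rescaled to a common upper quartile the signs of Gstp1 and Mgst1, whose differences lay within 0.01 of 0 on the log2 scale, turned. Gsta4, which detoxifies the lipid peroxidation product hydroxynonenal (chromosome 9, 78182774 to 78209349), had 1151, 1096, 1262, 1121 and 1128 normalised counts in AAV8-Irisin-FLAG mice, against 1288, 1147, 1278, 1161 and 1204 in AAV8-GFP mice. AAV8-Irisin-FLAG mice 2, 4 and 5 lay under the whole AAV8-GFP range, while mouse 3 was among the 3 highest of all. The difference was −5.27% with a 95% interval of −12.3% to 2.30% (adjusted p = 0.942 by limma). Gstm1 averaged 5099 ± 186 normalised counts in AAV8-Irisin-FLAG and 5123 ± 213 in AAV8-GFP, and Gstp1 averaged 4041 ± 142 in AAV8-Irisin-FLAG and 4041 ± 313 in AAV8-GFP (SD, n = 5 each). Near-identical relatives share 18.9% of the 50-base stretches of Gstm1 transcripts and 33.7% of those of Gstp1, chiefly Gstp2, so these levels are uncertain. The log2 differences of Gstm5 and of the membrane-bound transferase Mgst3 were 0.011 and 0.030, that of Mgst3 lay between 0.0082 and 0.055 with a mouse left out in turn, and exons of Gstm5 overlap those of 4933431E20Rik on the opposite strand. Mgst1, another membrane-bound transferase, ranged from 138 to 228 normalised counts in AAV8-Irisin-FLAG and from 150 to 198 in AAV8-GFP. AAV8-Irisin-FLAG mouse 1 held the highest Mgst1 and Gpx7 values and mouse 5 the lowest Mgst1 value. Markers of meninges and vascular fibroblasts, of which 5 of 7 averaged higher in AAV8-Irisin-FLAG and none was at 0 in all libraries, summed to 3429 normalised counts in AAV8-Irisin-FLAG mouse 1, within 2443 to 3648 in AAV8-Irisin-FLAG and 2355 to 3301 in AAV8-GFP. Their part in the Mgst1 and Gpx7 values was not tested.

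Per length, transferases held 3 of the 4 highest levels and glutathione peroxidases the 2 lowest. Per kb of annotated exon, Gstm1 was highest, at 3462 ± 126 normalised counts in AAV8-Irisin-FLAG and 3478 ± 145 in AAV8-GFP (SD, n = 5 each). Gpx4 followed at 3148 ± 127 and 3255 ± 240, and its values overlapped those of Gstm1. Gstp1, Gstm5 and Prdx5 came next, between 2226 and 2610 per kb in AAV8-Irisin-FLAG and between 2291 and 2610 in AAV8-GFP, and the means of Gstp1 and Gstm5 lay closer together than the SD of Gstm5 in AAV8-Irisin-FLAG. Nfe2l2 ranked at place 25, with 126 ± 5.26 per kb in AAV8-Irisin-FLAG and 129 ± 8.93 in AAV8-GFP, and Keap1 at place 17, with 630 ± 12.3 and 644 ± 28.2 in the same order. Of the readout genes, Hmox1 was at place 26, with 103 ± 8.65 per kb in AAV8-Irisin-FLAG and 104 ± 8.00 in AAV8-GFP. Nqo1 was at place 33, with 66.4 ± 10.8 and 64.6 ± 4.62 in the same order. Gpx8 was lowest, at 44.3 ± 8.40 per kb in AAV8-Irisin-FLAG and 44.0 ± 10.8 in AAV8-GFP, and Gpx7, next above it at 51.5 and 51.4 in the same order, differed from it by less than these SDs. The length is the union of all annotated exons, so a level per kb is low for a gene with long exons that hippocampus does not use.

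**Figure D4:**
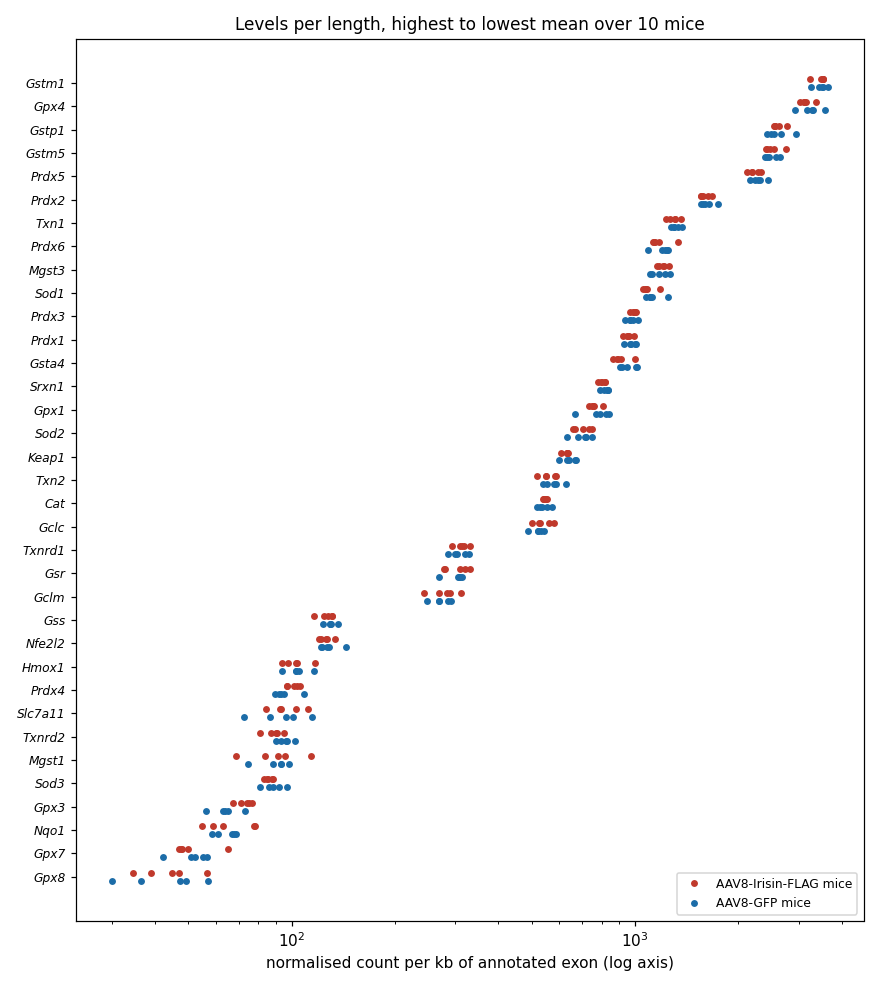
Normalised count per kb of annotated exon (horizontal log axis) of the 35 genes, ordered down the page by the mean over 10 mice; each dot is a mouse, AAV8-Irisin-FLAG in red above AAV8-GFP in blue. The groups overlap in every gene, and levels run from 44.3 per kb for Gpx8 to 3462 for Gstm1 in the means of AAV8-Irisin-FLAG mice.

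A list of 66 other genes of the pathway was read from the same fit, and 65 were tested. None passed at an adjusted p under 0.05 by limma, beside 0% of all tested genes, and 1 of 65 had an unadjusted p under 0.05, beside 4.49%. The mean was higher in AAV8-Irisin-FLAG for 24 and lower for 41, with a median log2 difference of −0.015. The gene under 0.05 was Oplah, 5-oxoprolinase of the glutathione salvage cycle, with 1032, 916, 1059, 965 and 988 normalised counts in AAV8-Irisin-FLAG mice, against 1005, 1108, 1060, 1115 and 1135 in AAV8-GFP mice. Its log2 difference was −0.13 with a standard error of 0.052 (adjusted p = 0.942 by limma), and 3 of 5 AAV8-Irisin-FLAG mice lay under the whole AAV8-GFP range. Exons of Oplah overlap those of Exosc4 and Smpd5 on the opposite strand. Sesn3, a stress-induced sestrin, averaged 4605 ± 203 in AAV8-Irisin-FLAG and 4306 ± 281 in AAV8-GFP (SD, n = 5 each). Ccs, the chaperone that loads copper into SOD1, averaged 441 ± 30.2 in AAV8-Irisin-FLAG and 486 ± 39.5 in AAV8-GFP (SD, n = 5 each). The log2 differences of Msrb2, a mitochondrial methionine sulfoxide reductase, of the selenoprotein Selenow and of Mafg, a partner of NRF2, were −0.11, −0.093 and −0.063. They were −0.085, −0.060 and −0.037 without AAV8-GFP mouse 1. Exons of Mafg overlap those of Sirt7 on its own strand. By role, means were lower for 8 of 12 regulators and partners of NRF2 and 6 of 8 genes of NADPH supply. They were lower for 5 of 13 further transferases and 6 of 12 genes of glutathione transport and salvage. The count was 5 of 7 for genes of haem, iron and quinone handling. It was 11 of 13 for glutaredoxins, thioredoxin partners, methionine sulfoxide reductases and selenoproteins. Over all tested genes the share lower was 49.5%. In this group of 13, AAV8-GFP mouse 1, which stood apart in its extreme values, was highest for Ccs, Msrb2, Selenow, Msra, Glrx5 and Msrb1. Other libraries were highest for the rest. Lower means among the further genes were not counted without that mouse.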

How the data were processed

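Hippocampal RNA of 10 mice was sequenced after oligo(dT) selection with the NEBNext Ultra kit, per the labels' protocols. Build mm10, bcl2fastq 2.17 and DESeq2 are named in the submitters' processing notes. The sources used here give no aligner, counter, annotation or strand setting. The authors deposited a signal, a normalised count per gene and library, per the table's name. Low values were close to whole multiples of an estimated value of 1 read for only 49.5% to 72.1% of values (tolerance 0.1 reads), so reads were not recovered, count tests were not run and no counting interval is given.

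Genes at 10 or more in 5 or more of 10 libraries were converted to log2(value + 1) and fitted with limma 3.58.1 in R 4.3.3 (group as factor, eBayes with trend, two-sided, Benjamini-Hochberg over all 17556 genes, threshold 0.05). The 1 added before taking log2 understates changes of low genes. Each sample title is a mouse of its own, and the spread behind a p-value is that between mice. The genes and lists were chosen with earlier results of these data known. Values by mouse are given for 10 genes of central role and the 8 of smallest unadjusted p, 16 in all, and 6 further pathway genes of smallest unadjusted p are named. Positions and exon lengths are those of GENCODE M21, on mm10, matched by symbol. Dates stood in place of 26 symbols, none an antioxidant gene. The fit was tested on simulated data. Alternatives were other pseudocounts, filters, scalings, variance priors and weights, a replicate block, and leaving out mice.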

Additional observations from a re-analysis of the deposited data

Results flagged for a closer look

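Among 70 groups of 5 mice, 35 genes in each of 2 treatments, 7 held a mouse far from the other 4 by Dixon's criterion, and chance gives about 1 in 20. Keap1 was low in AAV8-Irisin-FLAG mouse 2, at 2853 normalised counts against 2971 to 2988 in the other 4. Gpx7 was high in AAV8-Irisin-FLAG mouse 1, at 84.3 against 60.4 to 64.1. Prdx6 and Sod1 were both high in AAV8-Irisin-FLAG mouse 3, at 6393 against 5419 to 5647 and at 4711 against 4189 to 4292. Gstm1 was low in AAV8-Irisin-FLAG mouse 5, at 4770 against 5129 to 5209. Gsr was low in AAV8-GFP mouse 2, at 740 against 843 to 861. Sod1 was high in AAV8-GFP mouse 1, at 4962 against 4272 to 4437.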

How the results depend on the processing

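Over 20 alternatives, 0 of the 35 antioxidant genes and 0 of the further pathway genes passed in any, and the smallest adjusted p of an antioxidant gene by limma was 0.796. Of the 35, 16 kept the sign of their difference in all alternatives and 19 did not in some. Without a filter on low values 1 gene of the table passed, Gm49383, named after its values were seen, at 0 in all AAV8-Irisin-FLAG mice and at 8.83 on average in AAV8-GFP. With the mouse number as a replicate block, 0 genes passed in the table and 0 among the antioxidant genes, and their median difference was −0.0064. The numbers name separate mice, and the deviations of same-numbered mice correlated between −0.089 and 0.030. Leaving out a mouse at a time, antioxidant genes with a higher mean numbered 11 to 18 and their median lay between −0.030 and 0.00098. Log2 differences that turned then ranged from −0.055 to 0.0080 for Nfe2l2, −0.063 to 0.023 for Hmox1, −0.034 to 0.092 for Nqo1, −0.039 to 0.13 for Slc7a11, −0.0044 to 0.083 for Gclm, −0.029 to 0.043 for Gsr, −0.084 to 0.00031 for Gpx1, −0.090 to 0.034 for Gpx7, −0.10 to 0.13 for Gpx8, −0.025 to 0.035 for Sod2, −0.0041 to 0.031 for Cat, −0.030 to 0.017 for Gstm1, −0.022 to 0.032 for Gstm5, −0.023 to 0.046 for Gstp1 and −0.086 to 0.095 for Mgst1. With a common upper quartile Gstp1 was −0.00038 and Mgst1 −0.0022. With array quality weights Gpx7 was 0.029, Sod2 −0.014 and Cat −0.00036. Without both AAV8-GFP mouse 1 and AAV8-Irisin-FLAG mouse 4, chosen after seeing the data, Hmox1 was 0.011, Slc7a11 −0.091, Gclc −0.0024, Gpx1 0.013, Gpx4 0.0051, Gpx7 0.060, Prdx2 0.0091, Sod2 −0.0018, Cat −0.0099, Txn2 0.0079 and Mgst1 −0.0084. The cause of these turns was not tested. Tests on whole reads were not run. Depth per gene is unknown, and 5 mice a group set the limit given by the unadjusted intervals.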
